A study of Mus musculus with 6 samples.

Results

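The gene set described here holds 37 antiviral interferon-stimulated genes and transcription factors of the IRF and STAT families, out of 55487 genes in the deposited tables. Its members were given as a list of symbols, and each symbol matched 1 gene identifier. RNA came from cultured chondrocytes, the cells of cartilage, of C57B/6 mouse knee cartilage. In 3 libraries, M-LPS-EV, the cells had been given extracellular vesicles (small membrane particles) that macrophages released after LPS, a molecule of the bacterial outer membrane. In the other 3, M-EV, the vesicles were of macrophages for which no LPS is named; where the macrophages came from is not given in the labels. Both groups received 10 µg/ml of vesicle protein for 24 h, so each difference lies between the vesicle types, and cells without vesicles were not analysed here. Whether replicates stand for separate animals or cultures is not given in the labels, and p-values here reflect spread among samples that may be of technical origin.

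Cells sense foreign RNA through helicases such as RIG-I (Ddx58) and MDA5 (Ifih1), and LPS through TLR4. Both routes can activate IRF3, which together with NF-kB switches on interferon beta. Type I interferon then acts through its receptor on a complex that includes STAT2 and IRF9, which binds the interferon-stimulated response element (ISRE) and induces the antiviral effectors. Interferon gamma acts on another element, the gamma-activated site (GAS). Irf1 is a target of both interferon gamma and NF-kB and itself activates part of these genes.

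Promoter windows show how the elements are spread over members that differ in these data. Printed are 2 genes that were called higher with M-LPS-EV under every alternative processing tried, Irf1 and Bst2, and 2 textbook interferon targets with very few counts in both groups, Isg15 and Ifit1. Sequences are from RefSeq on build GRCm38.p6 and run 5′ to 3′ on the strand of the gene, from 250 bases before its start to 50 after. They lie at chr11:53769764-53770063 (plus strand, Irf1), chr8:71537423-71537722 (minus strand, Bst2), chr4:156200769-156201068 (minus strand, Isg15) and chr19:34640639-34640938 (plus strand, Ifit1). Capitals mark matches on either strand to the ISRE core (GAAA, any 2 bases, GAAA), to the GAS core TTCNNNGAA or to the kB consensus bound by NF-kB.
Irf1: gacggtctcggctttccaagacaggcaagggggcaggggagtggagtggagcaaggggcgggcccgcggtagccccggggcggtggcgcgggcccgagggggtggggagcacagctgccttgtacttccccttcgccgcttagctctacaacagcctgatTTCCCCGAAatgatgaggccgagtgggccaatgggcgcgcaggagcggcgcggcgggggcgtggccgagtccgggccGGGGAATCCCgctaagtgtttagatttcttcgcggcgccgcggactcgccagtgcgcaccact
Bst2: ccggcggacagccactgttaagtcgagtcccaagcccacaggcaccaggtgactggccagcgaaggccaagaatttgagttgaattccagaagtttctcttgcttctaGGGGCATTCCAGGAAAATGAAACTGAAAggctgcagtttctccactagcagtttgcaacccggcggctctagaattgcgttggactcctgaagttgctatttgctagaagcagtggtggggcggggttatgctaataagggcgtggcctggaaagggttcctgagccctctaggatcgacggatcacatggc
Isg15: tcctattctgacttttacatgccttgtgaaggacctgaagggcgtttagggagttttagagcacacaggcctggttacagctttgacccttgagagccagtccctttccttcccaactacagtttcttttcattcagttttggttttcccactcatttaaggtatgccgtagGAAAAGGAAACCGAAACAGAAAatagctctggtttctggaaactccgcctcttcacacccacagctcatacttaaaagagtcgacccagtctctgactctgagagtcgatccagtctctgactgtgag
Ifit1: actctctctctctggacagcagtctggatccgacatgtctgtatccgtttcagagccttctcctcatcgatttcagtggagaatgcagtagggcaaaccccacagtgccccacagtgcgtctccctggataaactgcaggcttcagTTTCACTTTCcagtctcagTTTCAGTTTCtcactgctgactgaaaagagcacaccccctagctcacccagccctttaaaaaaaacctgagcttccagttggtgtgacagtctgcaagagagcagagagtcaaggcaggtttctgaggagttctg
The printed Irf1 window held a GAS match beginning 90 bases before the start and a kB match beginning 13 bases before it, and no ISRE core. RefSeq gives a second Irf1 window, at chr11:53770223-53770522, which held no match to any of the 3 elements. In Bst2 a kB match, a GAS match and 2 ISRE cores, beginning 142, 136, 130 and 124 bases before the start, overlap one another and make up the single capital run. The Isg15 run holds 3 overlapping ISRE cores, beginning 78, 72 and 66 bases before the start, and Ifit1 has 2 separate ones at 104 and 85 bases. RefSeq windows were found for 30 members, some of which have several start sites. The ISRE core was present in at least 1 window of 16 of these 30, against 3.44% of all 32851 mouse windows. A GAS core was present in 8 members, against 8.3% of all windows, and a kB match in 7, against 8.46%. For all 3 elements the member counts are per gene over all its windows, and the percentages are per single window. A member with several windows thus had more room for a match, and the comparison is not like for like. Among the 9 members with a window that were called higher, 5 held the ISRE core, 5 the GAS core and 4 a kB match. Cmpk2 and Herc6, also among these 9, held none of the 3 elements, and Parp14, called higher as well, had no window. Among the 9 tested and not called, 3 held the ISRE core, 2 the GAS core and 1 a kB match, and of the 2 called lower 1 held the ISRE core and neither held another element. Among the 10 with too few counts for the test, 7 held the ISRE core, 1 the GAS core and 2 a kB match. These are matches of letters, not measured binding.

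The libraries held 20239626 to 23539911 estimated counts with M-LPS-EV and 22274687 to 25712667 with M-EV. The chondrocyte markers were present throughout. Of the 9 listed, 8 were called lower with M-LPS-EV (edgeR adjusted p under 0.05), and Sox9 was not called (log2 fold change 0.06, adjusted p = 0.097). Over all 14604 tested genes 16.4% were called higher and 15.2% lower. The summed level of the 9 markers was 109000 to 111000 CPM (counts scaled to library size) with M-LPS-EV and 129000 to 130000 CPM with M-EV. Col2a1 alone averaged 76300 CPM with M-LPS-EV and 86200 CPM with M-EV. In bulk RNA, fewer cells of a type and less RNA per cell cannot be told apart. Macrophage markers were low but counted in both groups. Their sum over 15 genes was 39.2 to 44.6 CPM with M-LPS-EV and 30.5 to 32.5 CPM with M-EV, and none of the 15 was at 0 in all libraries. Of 10 macrophage markers tested, 4 were called higher and 6 were not called. Adgre1, which encodes F4/80, averaged 2.11 CPM with M-LPS-EV and 0.735 CPM with M-EV (edgeR adjusted p = 4.3e-05). Csf1r, a defining receptor of the lineage named here after its values were seen, averaged 2.17 CPM with M-LPS-EV and 1.97 CPM with M-EV (adjusted p = 0.68). Of 8 fibroblast markers tested, 2 were called higher, 3 lower and 3 were not called. Dcn averaged 629 CPM with M-LPS-EV and 456 CPM with M-EV (adjusted p = 8.1e-16), while Col1a2 averaged 497 CPM with M-LPS-EV and 632 CPM with M-EV (adjusted p = 1.1e-11). Of 10 lymphocyte and dendritic cell markers 6 were at 0 in every library, and the rest summed to at most 0.157 CPM. The part of these cell types in the results below was not tested.

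Levels differed widely among the members with both vesicle types. The OAS and MX genes lay below 1 TPM, while Isg20 averaged 63.2 TPM with M-LPS-EV and 57.3 TPM with M-EV. The members that differed between the groups did so mostly by small amounts. Among the 37 genes, 16 averaged at least 1 TPM (a level scaled by transcript length and library size), 14 lay between 0.1 and 1 TPM and 7 below 0.1 TPM. Between 32 and 35 members had a count in each M-LPS-EV library, against 32 to 34 in each M-EV library. Their summed level was 223, 232 and 227 TPM in the M-LPS-EV libraries and 198, 205 and 189 TPM in the M-EV libraries. Enough counts for the test (edgeR quasi-likelihood with Benjamini-Hochberg adjustment over all tested genes, threshold 0.05) were present for 22 members. Of these, 10 were called higher with M-LPS-EV, 2 lower and 10 were not called. Over all 14604 tested genes 16.4% were called higher and 15.2% lower, 31.6% together. All M-LPS-EV libraries lay on one side of all M-EV libraries in CPM for 12 members with a test, 10 higher and 2 lower, against 42.2% of all tested genes (21.5% higher and 20.6% lower). These 12 include Xaf1, which was not called, and lack Eif2ak2, which was. The median log2 fold change was 0.33 over the 22 members and 0.003 over all tested genes. These values leave out the other 15 members, and they include Cmpk2 and Parp14, which passed the count filter on M-LPS-EV libraries alone, and Ifit3b, which passed it on M-EV libraries alone. Only 4 of the 10 higher members differed by at least 1.5-fold. With limma-trend on log2(TPM + 1) 4 members were called higher and 1 lower, and without M-EV replicate 1 the counts were 8 and 0. Lower calls also numbered 1 without M-LPS-EV replicate 1, 2 or 3 and without M-EV replicate 2.

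**Figure D1:**
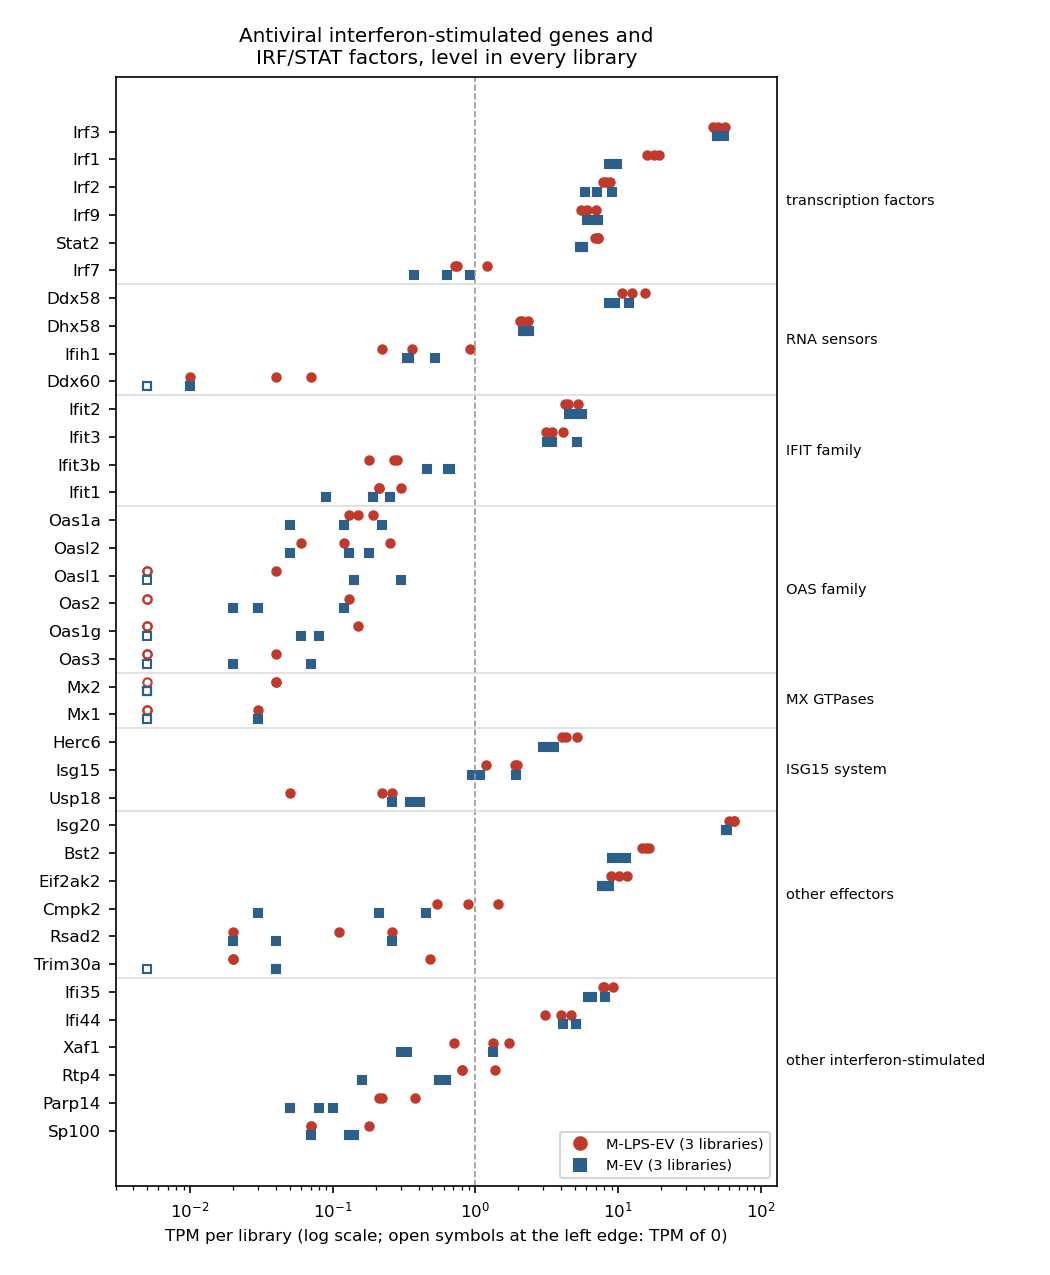
TPM of each of the 37 genes in every library on a log scale, with M-LPS-EV as red circles, M-EV as blue squares, and genes grouped by role; open symbols at the left stand for 0 TPM. Isg20 and Irf3 lie near 60 TPM and 50 TPM in both groups, while the OAS and MX genes lie below the dashed line at 1 TPM in every library.

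Among the transcription factors, Irf1, Irf2 and Stat2 rose, and Irf3, Irf7 and Irf9 were not called. Irf1 (ENSMUSG00000018899, chr11:53770014-53778374 on GRCm38) stood at 20.2, 18.4 and 17.1 CPM in the M-LPS-EV libraries, against 10.1, 10.7 and 9.49 CPM in the M-EV libraries. Its lowest M-LPS-EV library lay well above its highest M-EV library, and the fold was 1.84 (log2 fold change 0.88, SE 0.08, adjusted p = 1.6e-09). Irf2 (chr8:46739732-46847458), a factor that competes with IRF1 for shared sites, had 10.7, 10.3 and 10.2 CPM with M-LPS-EV and 6.87, 8.75 and 7.58 CPM with M-EV (log2 fold change 0.43, SE 0.10, adjusted p = 0.0011). Per transcript length its groups overlapped, with 8.24 ± 0.459 TPM with M-LPS-EV and 7.35 ± 1.57 TPM with M-EV (SD, n = 3 each). The call ended on that scale (limma-trend, log2 difference 0.16, adjusted p = 0.47) and with an effective length offset (0.19, adjusted p = 0.43). Stat2 (chr10:128270559-128292849) had 13.4, 12.5 and 11.3 CPM with M-LPS-EV and 9.93, 9.48 and 10.2 CPM with M-EV. Its groups did not overlap, and its log2 fold change was 0.33 (SE 0.08, adjusted p = 0.0037). The call ended on log2(TPM + 1) with no filter on low values (0.31, limma adjusted p = 0.065). Irf9, the DNA-binding subunit of the same complex, averaged 8.18 ± 1.04 CPM with M-LPS-EV and 8.39 ± 0.519 CPM with M-EV (SD, n = 3 each). Its log2 fold change was -0.04 (SE 0.10, adjusted p = 0.82). Of 10 other IRF and STAT genes 8 were tested, with 5 called higher and 3 not called (median log2 fold change 0.40). Over all tested genes 16.4% were called higher. Part of Irf9 overlaps Rnf31 on the same strand, so the sharing of reads there is uncertain.

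Irf3, which is present before any stimulus and is activated by phosphorylation, was the most abundant member per length after Isg20. It averaged 50.8 ± 5.02 TPM with M-LPS-EV and 51.3 ± 3.68 TPM with M-EV (SD, n = 3 each), with a log2 fold change in counts of -0.02 (SE 0.06, adjusted p = 0.82). Transcripts annotated as retaining an intron took 46.7% to 50.9% of its counts in the M-LPS-EV libraries and 47.5% to 51.0% in the M-EV libraries. Irf3 also overlaps Bcl2l12 on the opposite strand, which had 532 counts with M-LPS-EV and 486 with M-EV. Irf7, the interferon-induced factor that amplifies the response, was near the detection limit. It had 19, 12 and 8 counts in the M-LPS-EV libraries and 15, 10 and 5 in the M-EV libraries (log2 fold change 0.48, SE 0.42, adjusted p = 0.43). The groups overlapped. Transcripts not annotated as protein-coding took 35.6%, 19.8% and 100% of Irf7 counts in the M-LPS-EV libraries. In the M-EV libraries they took 0%, 100% and 93.4%. The annotation places part of Phrf1, with 5056 counts over the whole gene with M-LPS-EV and 5220 with M-EV, on the opposite strand of this locus.

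Of the RNA sensors, Ddx58 (chr4:40203773-40239828) was the only one called. It averaged 22.6 ± 1.59 CPM with M-LPS-EV and 17.9 ± 2.09 CPM with M-EV (SD, n = 3 each), from 446, 538 and 492 counts with M-LPS-EV and 510, 397 and 357 with M-EV. Once scaled to library size the groups were adjacent without overlap (log2 fold change 0.33, SE 0.07, adjusted p = 0.0011). The size was alike but not past the threshold with an effective length offset (0.36, adjusted p = 0.11) and on log2(TPM + 1), where the groups overlapped (0.33, limma adjusted p = 0.19). Ifih1, the sensor of long double-stranded RNA, had 26, 11 and 18 counts with M-LPS-EV and 17, 15 and 15 with M-EV. Its 3 M-LPS-EV libraries spanned the whole M-EV range (log2 fold change 0.33, SE 0.35, adjusted p = 0.52). Dhx58, which encodes their regulator LGP2, had 28, 34 and 29 counts with M-LPS-EV and 32, 31 and 36 with M-EV (log2 fold change -0.02, SE 0.24, adjusted p = 0.96). An antisense gene at that locus, Dhx58os, held more counts than Dhx58 itself, 773 with M-LPS-EV and 1050 with M-EV. Ddx60, a helicase of the same pathway, had 8 counts with M-LPS-EV and 1 with M-EV, a ratio of 8.58 whose 95% counting interval runs from 1.15 to 381.0. Intervals of this kind are exact, are given for members too low for the test, and cover counting error only.

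**Figure D2:**
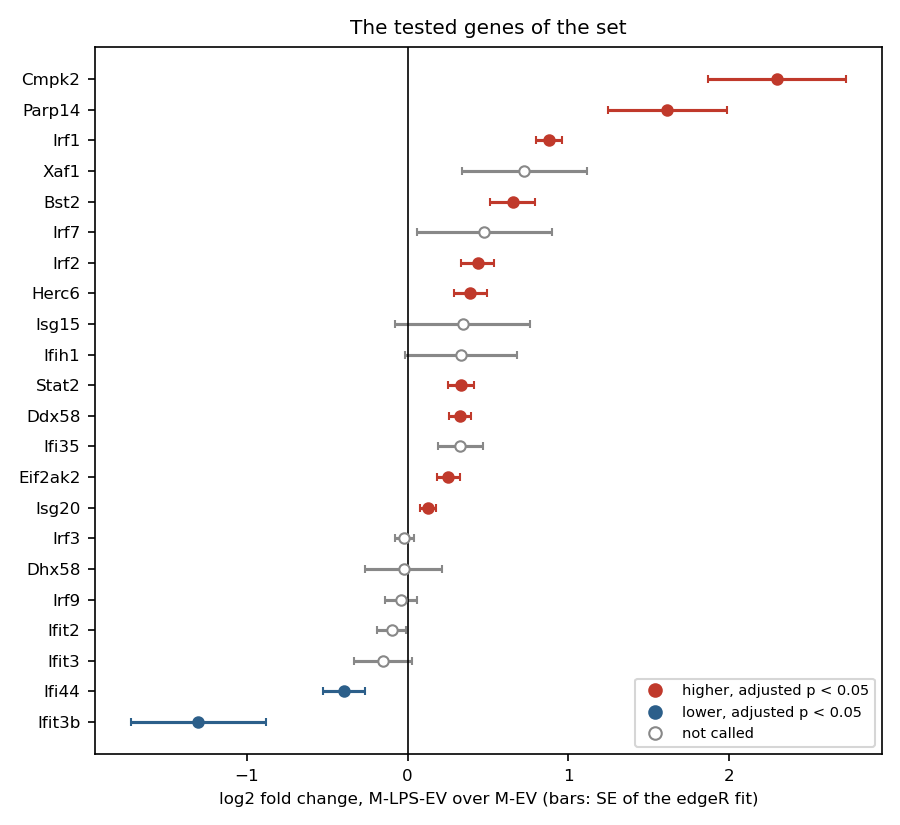
Log2 fold change of M-LPS-EV over M-EV with its SE for the 22 members with enough counts, ordered by size. Cmpk2 and Parp14 lie farthest to the right with wide bars, Ifit3b and Ifi44 are the members called lower, and open grey symbols mark the 10 that were not called.

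The IFIT genes, whose proteins bind viral RNA ends, gave no call above M-EV. Ifit2 (chr19:34550694-34576419) had 9.90, 8.96 and 8.82 CPM with M-LPS-EV and 9.93, 10.4 and 9.31 CPM with M-EV (log2 fold change -0.10, SE 0.09, adjusted p = 0.46). Its neighbour Ifit3 had 65, 66 and 74 counts with M-LPS-EV and 116, 67 and 63 with M-EV (-0.15, SE 0.18, adjusted p = 0.59). The groups overlapped for both genes, and without M-EV replicate 1, the library with the highest Ifit3 count, the Ifit3 value was 0.11 (adjusted p = 0.74). Ifit3b (chr19:34607970-34613401), a copy of Ifit3, passed the count filter on M-EV libraries alone. It was called lower with 6, 4 and 6 counts in the M-LPS-EV libraries and 17, 15 and 11 in the M-EV libraries (-1.30, SE 0.42, adjusted p = 0.020). That call ended with DESeq2 (adjusted p = 0.10), on log2(TPM + 1) with no filter (-0.35, limma adjusted p = 0.056) and without M-LPS-EV replicate 1 (-1.41, edgeR adjusted p = 0.051) or 2 (-1.08, adjusted p = 0.11). It also ended without M-EV replicate 1 (-1.23, adjusted p = 0.067) or 2 (-1.23, adjusted p = 0.077). The transcripts of this pair were 97.8% identical over 1700 aligned positions, and 51.2% of all stretches of 50 bases of Ifit3 also occurred in Ifit3b, and how RSEM divided their reads is uncertain. Summed as 1 gene, a step added after the data were seen, the pair had 71, 70 and 80 counts with M-LPS-EV and 133, 82 and 74 with M-EV. These sums overlapped between the groups (log2 fold change -0.28, SE 0.17, adjusted p = 0.25). Ifit1, whose promoter with 2 ISRE cores is printed above, was near the floor, with 9, 7 and 6 counts with M-LPS-EV and 9, 6 and 3 with M-EV, a ratio of 1.31 (95% counting interval 0.671 to 2.59).

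The OAS and MX families were barely detected. OAS enzymes make an oligoadenylate messenger that activates RNase L, and MX proteins are GTPases that trap viral nucleocapsids. The 6 OAS genes, on chromosome 5, held 21 counts in all over the M-LPS-EV libraries and 28 over the M-EV libraries, with at most 5 counts for a gene in a library. Oas1a was the highest of them, with 4, 3 and 3 counts with M-LPS-EV and 3, 1 and 5 with M-EV (ratio 1.19, 95% counting interval 0.435 to 3.31). Its transcript was 97.5% identical to that of Oas1g over 1860 positions. Oasl2 had 6 counts with M-LPS-EV and 5 with M-EV, and Oas3 had 2 with M-LPS-EV and 4 with M-EV. Oas2 and Oasl1 each had 1 count with M-LPS-EV and 4 with M-EV, and Oas1g had 1 with M-LPS-EV and 2 with M-EV. The 95% counting intervals of Oas2, Oas3, Oasl1 and Oasl2 all included a ratio of 1. Mx1 had 1 count in each group, and Mx2 had 2 counts with M-LPS-EV and 0 with M-EV. In most laboratory mouse strains both Mx genes carry defects. At this depth 3 counts in a library, the limit that a count of 0 allows, correspond to 0.118 to 0.147 CPM.

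In the ISG15 system, which attaches a ubiquitin-like protein to targets, Herc6 rose and Isg15 did not pass the test. Herc6 (chr6:57581000-57664632), the mouse ligase of ISG15, had 7.79, 8.45 and 8.38 CPM with M-LPS-EV and 6.43, 6.21 and 6.12 CPM with M-EV. The groups did not overlap (log2 fold change 0.39, SE 0.10, adjusted p = 0.0042), although on log2(TPM + 1) the call ended (0.36, limma adjusted p = 0.060). Isg15 had 12, 13 and 7 counts with M-LPS-EV and 14, 6 and 7 with M-EV (0.34, SE 0.42, adjusted p = 0.59). The groups overlapped. Usp18, the protease that removes ISG15 and damps receptor signalling, had 10 counts with M-LPS-EV and 17 with M-EV (ratio 0.631, 95% counting interval 0.258 to 1.46).

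Cmpk2 and Bst2 rose among the other effectors, Eif2ak2 and Isg20 by less. Cmpk2 (chr12:26469204-26479837), a mitochondrial nucleotide kinase, had the highest fold of the tested members, with 20, 21 and 29 counts in the M-LPS-EV libraries and 6, 1 and 8 in the M-EV libraries. It passed the count filter on M-LPS-EV libraries alone. In CPM the groups did not overlap, at a low level (log2 fold change 2.30, SE 0.43, adjusted p = 1.6e-04). In TPM they came close, with 0.54 in M-LPS-EV replicate 1 and 0.45 in M-EV replicate 1. The call narrowly ended on log2(TPM + 1) (0.66, limma adjusted p = 0.051). Its neighbour on chromosome 12, Rsad2, which encodes viperin, had 5, 1 and 11 counts with M-LPS-EV and 6, 2 and 1 with M-EV. Those groups overlapped, and the ratio of 2.02 had a 95% counting interval of 0.854 to 5.16. Bst2 (chr8:71534255-71537456), or tetherin, which holds budding virus at the cell surface, had 5.30, 5.07 and 5.58 CPM with M-LPS-EV and 3.06, 3.85 and 3.24 CPM with M-EV. The fold was 1.57 with no overlap of groups (log2 fold change 0.65, SE 0.14, adjusted p = 6.8e-04). Eif2ak2 (chr17:78852564-78882573), the RNA-activated kinase PKR, had 22.0, 21.2 and 18.5 CPM with M-LPS-EV and 16.1, 19.0 and 16.8 CPM with M-EV. Its groups overlapped by 1 library each (log2 fold change 0.25, SE 0.07, adjusted p = 0.0085). The call ended when M-LPS-EV replicate 1 was left out (0.21, adjusted p = 0.070), without M-EV replicate 1 (0.20, adjusted p = 0.067), with protein-coding transcripts only (0.24, adjusted p = 0.052) and on log2(TPM + 1) (0.29, limma adjusted p = 0.096).

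Isg20 (chr7:78913424-78920396), an RNA exonuclease, was the most abundant member, at 63.2 ± 2.48 TPM with M-LPS-EV and 57.3 ± 0.316 TPM with M-EV (SD, n = 3 each). Its rise was the smallest of the calls (log2 fold change 0.13, SE 0.05, adjusted p = 0.047). It fell short of the threshold with RLE scaling (adjusted p = 0.052), upper-quartile scaling (0.11, adjusted p = 0.078), an effective length offset (0.16, adjusted p = 0.091), no count filter (0.12, adjusted p = 0.11), protein-coding transcripts only (0.12, adjusted p = 0.11), limma-voom (adjusted p = 0.058) and DESeq2 (adjusted p = 0.21). Without M-LPS-EV replicate 2 or 3 the values were 0.12 and 0.11 (adjusted p = 0.13 for both). Without M-EV replicate 1, 2 or 3 they were 0.12, 0.13 and 0.13 (adjusted p = 0.13, 0.092 and 0.078). Trim30a, which in mouse restrains Toll-like receptor signalling, had 5 counts with M-LPS-EV and 4 with M-EV, too few to compare.

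**Figure D3:**
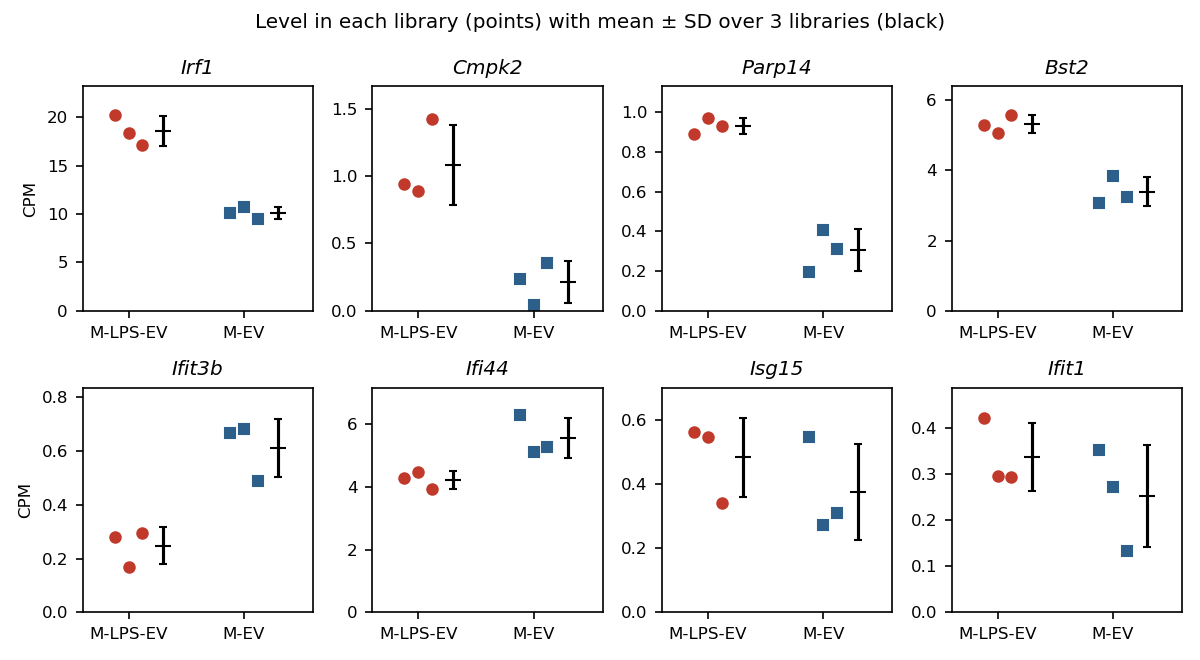
CPM of 8 members in each library, with M-LPS-EV on the left of each panel, M-EV on the right, and the mean ± SD over 3 libraries in black; each panel has its own axis starting at 0. Irf1, Cmpk2, Parp14 and Bst2 stand higher and Ifit3b and Ifi44 lower with M-LPS-EV without overlap, while the points of Isg15 and Ifit1 intermix.

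Of the remaining interferon-stimulated genes Parp14 rose and Ifi44 fell. Parp14 (chr16:35832874-35871544), an ADP-ribosyltransferase, had 19, 23 and 19 counts in the M-LPS-EV libraries and 5, 9 and 7 in the M-EV libraries. It passed the count filter on M-LPS-EV libraries alone. Its lowest M-LPS-EV count was over the highest M-EV count (log2 fold change 1.62, SE 0.37, adjusted p = 0.0013). On log2(TPM + 1), where its level is below the pseudocount of 1, the call ended (0.24, limma adjusted p = 0.13). Ifi44 (chr3:151730922-151749960) had 4.27, 4.48 and 3.92 CPM with M-LPS-EV and 6.28, 5.12 and 5.28 CPM with M-EV (log2 fold change -0.40, SE 0.13, adjusted p = 0.023). The groups did not overlap, but the call ended with DESeq2 (adjusted p = 0.079), on log2(TPM + 1) (-0.23, limma adjusted p = 0.33) and with an effective length offset (-0.27, edgeR adjusted p = 0.33). It also ended when M-LPS-EV replicate 3 (-0.35, adjusted p = 0.080) or M-EV replicate 1 (-0.30, adjusted p = 0.14) was left out. Ifi35, a leucine zipper protein, had 6.05, 5.24 and 4.95 CPM with M-LPS-EV and 3.92, 5.03 and 4.03 CPM with M-EV and was not called (0.33, SE 0.14, adjusted p = 0.076). Without M-EV replicate 2, its highest M-EV library, the value was 0.44 (adjusted p = 0.028). Xaf1, a pro-apoptotic antagonist of XIAP, had 11, 20 and 11 counts with M-LPS-EV and 12, 9 and 6 with M-EV (0.73, SE 0.39, adjusted p = 0.17). As CPM its groups did not overlap. Rtp4, an interferon-induced chaperone of receptors, had 30 counts with M-LPS-EV and 13 with M-EV (ratio 2.47, 95% counting interval 1.25 to 5.17). Its locus overlaps Masp1 on the other strand, which had 201 counts with M-LPS-EV and 327 with M-EV. On the same strand Rtp4 overlaps Gm45338, which had 17 counts with M-LPS-EV and 8 with M-EV, so the sharing of reads there is uncertain. Sp100, a nuclear body protein, had 6 counts with M-LPS-EV and 3 with M-EV (ratio 2.14, 95% counting interval 0.458 to 13.2).

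Upstream of these genes no transcript was counted for the interferon genes examined, while receptor chains were expressed. Other interferon genes were not examined, and 24 h was the only time sampled. All 14 interferon genes examined, Ifnb1, 8 interferon alpha genes, Ifne, Ifnk, Ifng, Ifnl2 and Ifnl3, had 0 counts in all libraries, which allows up to 3 counts in each. Of 12 genes for receptors, JAK kinases and feedback inhibitors 11 were tested, with 8 called higher and 3 not called (median log2 fold change 0.23). Over all tested genes 16.4% were called higher. Ifngr2, a chain of the interferon gamma receptor, averaged 34.4 CPM with M-LPS-EV and 19.3 CPM with M-EV (0.83, SE 0.05, adjusted p = 3.6e-12). Ifnar2 and Ifnar1, the chains of the type I receptor, had 0.37 (SE 0.05, adjusted p = 2.4e-06) and 0.06 (SE 0.04, adjusted p = 0.32). Socs3, an inhibitor of cytokine receptors, had 0.85 (SE 0.05, adjusted p = 1.2e-12). Of 15 sensing adaptors and kinases 12 were tested, with 6 called higher and 6 not called (median 0.13). The 6 higher ones include Ticam2, with 45 counts with M-LPS-EV and 18 with M-EV, which passed the count filter on M-LPS-EV libraries alone. Ikbke, an IRF3 kinase that NF-kB induces, averaged 12.2 CPM with M-LPS-EV and 5.52 CPM with M-EV (1.14, SE 0.10, adjusted p = 1.2e-09). The adaptor Mavs (-0.04, SE 0.06) and the endosomal RNA receptor Tlr3 (0.09, SE 0.17) were not called (adjusted p = 0.68 and 0.77). Tbk1, the other IRF3 kinase, was called at 0.17 (SE 0.06, adjusted p = 0.022). On log2(TPM + 1) Tbk1 had -0.02 (limma adjusted p = 0.89), and its call also ended on dropping M-LPS-EV replicate 1 or 2 (0.17 and 0.13, adjusted p = 0.062 and 0.12) or M-EV replicate 1 or 2 (0.15 for both, adjusted p = 0.086 and 0.082).

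Interferon-responsive genes outside the set gave higher fold changes at their upper end. Of 39 further interferon-stimulated genes 25 were tested, with 14 called higher, 3 lower and 8 not called (median log2 fold change 0.38). Over all tested genes 16.4% were called higher and 15.2% lower. Ifitm3, which blocks viral entry, averaged 21.2 CPM with M-LPS-EV and 8.98 CPM with M-EV (1.24, SE 0.07, adjusted p = 5.9e-13). Cxcl10, a chemokine that interferon gamma and NF-kB induce, had 230 counts with M-LPS-EV and 23 with M-EV (3.40, SE 0.28, adjusted p = 2.8e-10), and passed the count filter on M-LPS-EV libraries alone. Of 17 genes listed as interferon gamma targets 14 were tested, with 12 called higher and 2 not called (median 0.81). Their GTPase Gbp2 averaged 7.11 CPM with M-LPS-EV and 0.396 CPM with M-EV, and the peptide loader Tapbp 126 CPM with M-LPS-EV and 42.8 CPM with M-EV. Through M-LPS-EV counts alone, 3 of these 14 reached the test. These lists differ in expression level, and the difference between them was not tested.

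**Figure D4:**
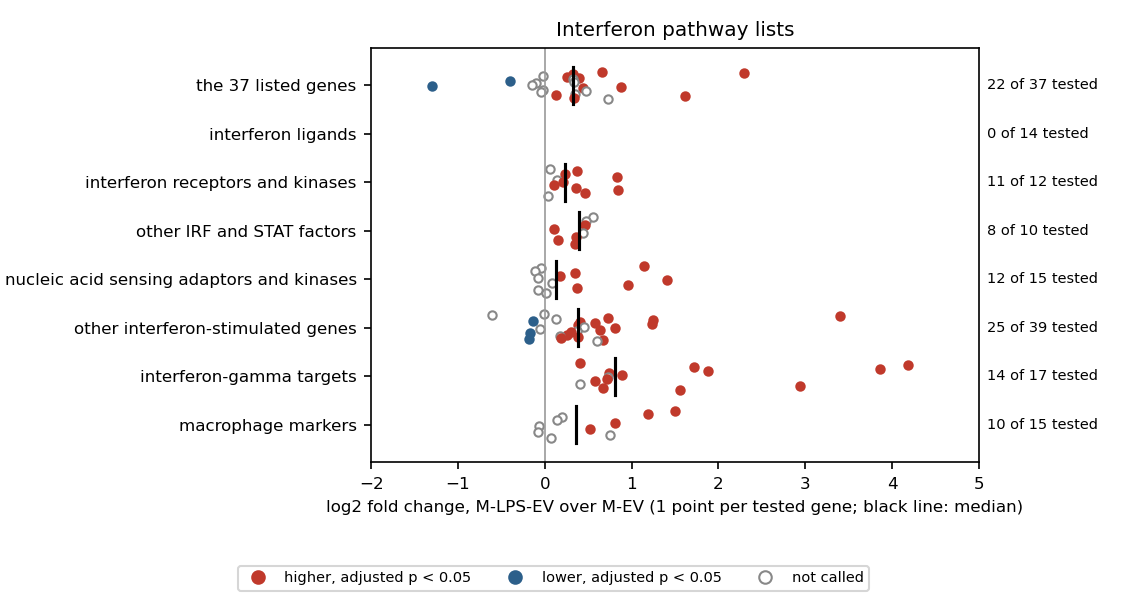
Log2 fold change of M-LPS-EV over M-EV for every tested gene of 8 lists, 1 point per gene, with red and blue for genes called higher and lower, open grey for genes not called, and a black line at the median. The 22 tested members of the 37 listed genes centre at 0.33 and the interferon gamma targets at 0.81, and the interferon ligands have no point because all 14 had 0 counts.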

How the data were processed

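Stranded mRNA libraries of 6 chondrocyte samples were compared, 3 with M-LPS-EV and 3 with M-EV, grouped by their titles. The submitters' processing notes name mm10 and the tools RSEM, STAR and DESeq2; for annotation and strand setting the sources used here give nothing. The authors deposited, per transcript, an expected count (RSEM's estimate, shared between transcripts that fit a read), a TPM value and an effective length in bases. All files hold 142699 transcripts of 55487 genes; 99.14% are in GENCODE M21 (GRCm38, the same build), which gave symbols and coordinates.

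Expected counts and TPM were summed per gene. Counts were rounded, filtered (filterByExpr, minimum count 10 and total 15, leaving 14604 genes), scaled by TMM and fitted with group as the only term (edgeR 4.0.16, R 4.3.3; tested on simulated counts); tests were two-sided. Uncertainty in RSEM's read sharing is not modelled. CPM use TMM-scaled library sizes. Libraries of 1 group differed by more than sampling noise (chi-square per degree of freedom 1.66 to 2.78). Alternatives used limma 3.58.1 and DESeq2 1.42.0 among others. Members, lists and tests were chosen with earlier results of these data known. All 37 members were named whatever their values; from the other lists, the 4 with the smallest p and 10 fixed genes, with a few given only where a result turned on them. 1 gene under that rule is not reported here. Figures were drawn with matplotlib 3.10.9.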

Additional observations from a re-analysis of the deposited data

How the results depend on the processing

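The members called higher and lower (10 and 2) became 4 and 1 with limma-trend on log2(TPM + 1), 4 and 1 with log2(TPM + 0.1), and 2 and 0 with log2(TPM + 1) and no filter, which adjusts over more genes. Lower calls numbered 1 with a mean count of at least 50, 1 with an effective length offset, 1 with counts rounded down and 0 with DESeq2. With 1 library left out, 8 to 10 members were called higher and 0 to 2 lower. Over all genes, 2397 higher and 2217 lower calls became 1539 and 1329 with the length offset, 1280 and 1342 on log2(TPM + 1), 1284 and 1335 on log2(TPM + 0.1), and 997 and 942 without the filter on log2(TPM + 1); with 1 library left out they ranged from 2100 to 2245 and from 1878 to 2072. The cause of these shifts was not tested. Irf1 and Bst2 were the 2 of 12 called members that kept their call under every alternative run, including protein-coding transcripts only, which was added after the data were seen (8 higher, 2 lower).

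Among members not called, the sign turned for Ifit3 without M-EV replicate 1 (0.11), for Irf3 with the length offset (0.003), without M-LPS-EV replicate 1 (0.02) and without M-EV replicate 2 (0.02), and for Irf9 without M-LPS-EV replicate 2 (0.04). It also turned for Ifih1 without M-LPS-EV replicate 1 (-0.02) and for Dhx58 without M-LPS-EV replicate 1 (0.01) and M-EV replicate 3 (0.07). Outside the set it turned for Mavs without M-LPS-EV replicate 3 (0.01), Tlr3 without M-EV replicate 1 (-0.05), and the endothelial marker Pecam1 without M-LPS-EV replicate 3 (0.19), M-EV replicate 2 (0.01) and M-EV replicate 3 (0.06). With 1 library left out, the ranges were -0.29 to 0.11 for Ifit3, -0.09 to 0.02 for Irf3, -0.15 to 0.04 for Irf9, -0.02 to 0.65 for Ifih1, -0.11 to 0.07 for Dhx58, -0.09 to 0.01 for Mavs, -0.05 to 0.30 for Tlr3 and -0.26 to 0.19 for Pecam1. Tbk1 had -0.01 with the length offset and -0.02 on each of the 3 TPM scales.

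Whether same-numbered libraries were paired is not given in the labels. Their deviations from the group means correlated at -0.0434, -0.0721 and 0.0266, which cannot decide whether they shared a culture. With the replicate block 10 members were called higher and 2 lower, and 2346 and 2173 genes over all. Depth limits the 15 members that the main fit left out. Their counts gave ratios with wide counting intervals, or no ratio for Mx1, Mx2 and Oas1g. The edgeR fit with no count filter took in all 37 members, of which 9 were called higher and 2 lower.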
